A study of Mus musculus with 16 samples.

Results

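The genes described here are 10 genes with which cortical astrocytes clear glutamate, couple to one another, move water and potassium, and support neuronal metabolism. The 10 members, *Aqp4*, *Slc1a2*, *Slc1a3*, *Aldh1l1*, *Gja1*, *Gjb6*, *Kcnj10*, *Glul*, *Aldoc* and *S100b*, were chosen by symbol from known astrocyte functions and matched by name, and all 10 were found among 55487 gene identifiers and were among the 18859 genes that passed the filter on low values. The study asked how time of day (TOD) shapes the response of the brain to inflammation. Total RNA of cortex, depleted of ribosomal RNA, was sequenced from 16 mice, 1 library per mouse. All mice were wild-type (WT) male C57Bl6 animals 2 months old, and each was injected i.p. on 2 consecutive days and killed on the day after. The 4 groups were 3 mice given PBS and 5 given LPS, a bacterial endotoxin that activates Toll-like receptor signalling, at 2 mg/kg at ZT1, just after lights-on, and 3 given PBS and 5 given LPS at the same dose at ZT13, just after lights-off. Harvest followed injection time, so that time of injection and time of collection cannot be told apart. As the tissue was whole cortex, fewer cells of a type and less RNA per cell cannot be told apart either.

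Astrocytes tile the cortex and contact synapses and vessels. They take up synaptic glutamate through *Slc1a2* (GLT-1) and *Slc1a3* (GLAST) and convert it to glutamine with *Glul*, form a gap junction network with *Gja1* (connexin 43) and *Gjb6* (connexin 30), and move water and potassium through *Aqp4* and *Kcnj10* (Kir4.1), which are concentrated at vascular endfeet. *Aldh1l1*, *Aldoc* and *S100b* encode a folate enzyme, a glycolytic aldolase and a calcium-binding protein used as astrocyte markers.

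Values are given in CPM, a gene's reads scaled to 1000000 reads on genes in each library, and the libraries held 20251840 to 29112758 such reads. Differences are on the scale of log2(CPM + 0.5), tested with limma over all 18859 genes, and a gene was called when its Benjamini-Hochberg adjusted p was under 0.05. Treatment was taken from the sample titles, since a separate treatment field contradicts the title in 12 of 16 samples. *Gfap*, the intermediate filament gene that rises in reactive astrocytes, was at 111 to 123 CPM in the 6 samples whose titles say PBS and between 572 and 1134 CPM in the 10 whose titles say LPS.

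LPS did not move the members as a block. *Aqp4*, *Slc1a3*, *Aldh1l1* and *Gjb6* rose at both times of day, by 30.4% to 53.01% at ZT1 and by 35.05% to 66.4% at ZT13, while *Gja1*, *Kcnj10*, *Aldoc* and *S100b* passed the test at neither time. *Slc1a2* and *Glul* fell at ZT13, by 8.82% and 11.2%. At ZT1, 4 of 10 members were called, all higher, where 16.2% of all tested genes were called, 11.1% higher and 5.15% lower. At ZT13, 6 of 10 were called, 4 higher and 2 lower, where 28.6% of all tested genes were called, 19.2% higher and 9.4% lower. The groups did not overlap for 4 members at ZT1, against 24.3% of all genes, and for 5 at ZT13, against 31.2%. The median log2 difference of the 10 members was 0.029 at ZT1 and 0.069 at ZT13, beside medians of all tested genes of 0.040 and 0.050.

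**Figure D1:**
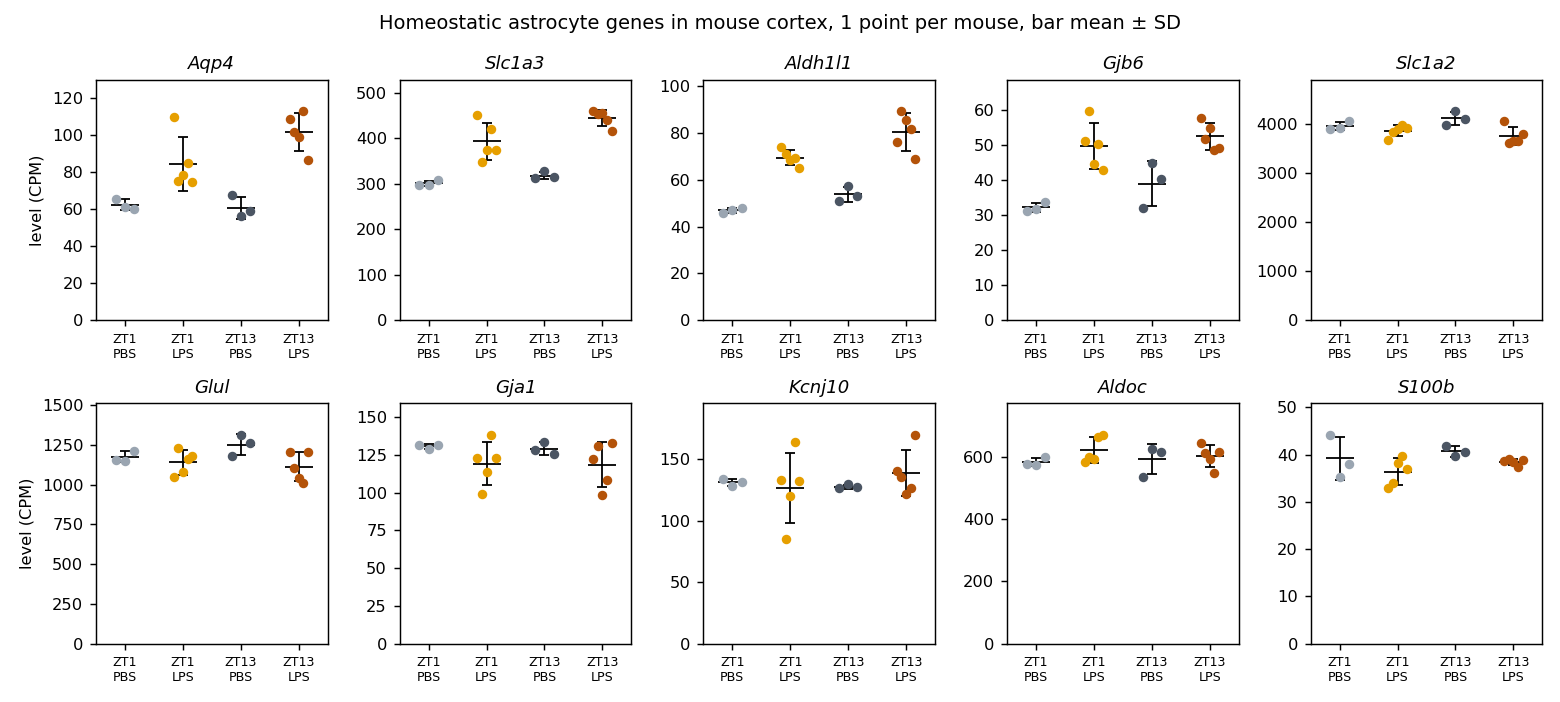
Level of each of the 10 genes in CPM, 1 point per mouse, with the mean and SD of the 4 groups (3 PBS and 5 LPS mice at each of ZT1 and ZT13); every axis starts at 0. *Aqp4*, *Slc1a3*, *Aldh1l1* and *Gjb6* lie higher in all LPS mice than in any PBS mouse of the same time, whereas the other 6 overlap or, for *S100b* at ZT13, lie slightly lower.

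The glutamate transporters diverged. *Slc1a3* (ENSMUSG00000005360, chromosome 15 of GRCm38 from 8634124 to 8710764, minus strand) encodes GLAST. *Slc1a3* was at 296, 297 and 308 CPM in the PBS mice at ZT1 and at 450.3, 348, 373, 419.9 and 375 CPM in the LPS mice. *Slc1a3* was at 311, 327 and 315 CPM in the PBS mice at ZT13 and at 459.6, 452, 455, 439.6 and 416 CPM in the LPS mice. Every LPS mouse was above every PBS mouse of its time. LPS and PBS mice differed on the log2 scale by 0.38 (SE 0.071, limma adjusted p = 0.0039) at ZT1 and 0.48 (SE 0.037, limma adjusted p = 3.3e-07) at ZT13. In the exact permutation test of the mean both differences had p = 0.036, the smallest that 3 mice against 5 allow.

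*Slc1a2* (ENSMUSG00000005089, chromosome 2 of GRCm38 from 102658659 to 102790784, plus strand) encodes GLT-1, the main glutamate transporter of the forebrain, and ranked 7 of all genes by mean CPM. *Slc1a2* was at 3906, 3917 and 4065 CPM in the PBS mice at ZT1 and at 3683, 3850.0, 3908, 3974 and 3924 CPM in the LPS mice. The groups overlapped, and the log2 difference of -0.04 (SE 0.035, limma adjusted p = 0.55) had a 95% confidence interval (CI) of -7.48% to 2.92% in percent change. *Slc1a2* was at 3991, 4268 and 4098 CPM in the PBS mice at ZT13 and at 4070.2, 3611, 3648, 3655 and 3806 CPM in the LPS mice. At this time 1 LPS mouse lay among the PBS mice and the other 4 lay below them. *Slc1a2* fell by 0.13 on the log2 scale (SE 0.042, limma adjusted p = 0.03, 95% CI -14.4% to -2.87%), with an exact permutation p of 0.071. This call was lost in 5 of 8 fits that left out 1 mouse, without ZT13 PBS replicate 2 or 3 (limma adjusted p = 0.16 and 0.073) and without ZT13 LPS replicate 2, 3 or 4 (0.075, 0.056 and 0.067).

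A ratio of both transporters within a mouse cancels any factor by which its library is scaled. The ratio of *Slc1a2* to *Slc1a3* in CPM was 13.2, 13.2 and 13.2 in the PBS mice at ZT1 and 8.18, 11.1, 10.5, 9.46 and 10.5 in the LPS mice. At ZT13 it was 12.8, 13.1 and 13.03 in PBS and 8.86, 7.99, 8.03, 8.31 and 9.14 in LPS mice. No LPS mouse reached the lowest PBS mouse at either time. The log2 ratio differed by -0.42 at ZT1 and by -0.62 at ZT13 (two-sided exact permutation p = 0.036 for each, and 0.036 after adjustment over the 4 ratio tests).

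The 250 bases before the RefSeq start sites of both transporter genes (GRCm38.p6, 5′ to 3′ on the gene's strand) are shown because these paralogs share a function and their ratio differed between LPS and PBS mice. The *Slc1a2* window is chr2:102706188-102706437 on the plus strand, at a start site inside the longer gene model above, and the *Slc1a3* window is chr15:8710808-8711057 on the minus strand.
Slc1a2: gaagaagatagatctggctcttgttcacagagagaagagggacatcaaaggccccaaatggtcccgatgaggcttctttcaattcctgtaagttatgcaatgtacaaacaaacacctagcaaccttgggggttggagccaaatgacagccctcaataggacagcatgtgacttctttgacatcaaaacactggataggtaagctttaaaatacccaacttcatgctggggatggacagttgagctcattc
Slc1a3: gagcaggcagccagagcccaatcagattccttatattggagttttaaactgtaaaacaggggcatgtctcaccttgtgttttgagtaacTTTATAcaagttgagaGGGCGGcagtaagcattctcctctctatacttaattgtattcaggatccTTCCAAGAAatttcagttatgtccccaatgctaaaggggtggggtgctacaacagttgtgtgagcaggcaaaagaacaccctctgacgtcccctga
Capitals mark matches, on either strand, to any of 4 searched motifs, the E-box CACGTG, the STAT site TTCNNNGAA, the TATA box TATAAA and the SP1 box GGGCGG. No matches overlapped. The *Slc1a3* window held a TATA box match 161 to 156 bases upstream, an SP1 match at 145 to 140 and a STAT match at 96 to 88, whereas the *Slc1a2* window held none. Among 32851 RefSeq promoter windows of this length 7.02% held the STAT letters, 12.4% the TATA letters and 32.7% the SP1 letters. Of the 9 members matched to this table, 2 held the STAT letters (*Slc1a3* and *Aldoc*), 5 the SP1 letters and 1 the TATA letters, and none held the E-box letters, which occurred in 6.02% of all windows. Such matches describe letters and not bound sites, and their part in the ratio was not tested. Which *Slc1a2* start site is used in cortex was not examined, so the windows may not compare the main promoters of both genes.

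*Glul* (ENSMUSG00000026473, chromosome 1 of GRCm38 from 153899944 to 153909723, plus strand) encodes glutamine synthetase, which turns the glutamate taken up into glutamine. *Glul* was at 1157, 1149.9 and 1213 CPM in the PBS mice at ZT1 and at 1046, 1230.0, 1076, 1161 and 1181 CPM in the LPS mice. These groups overlapped, with a log2 difference of -0.05 (SE 0.052, limma adjusted p = 0.61) and a 95% CI of -10.4% to 4.84%. *Glul* was at 1182, 1312 and 1258 CPM in the PBS mice at ZT13 and at 1201, 1103, 1044, 1008 and 1204 CPM in the LPS mice. At ZT13, 2 LPS mice lay within the range of the PBS mice and 3 lay below it. *Glul* fell by 0.17 on the log2 scale (SE 0.058, limma adjusted p = 0.039), with an exact permutation p of 0.11. The call was lost in 5 of 8 fits without 1 mouse, namely without ZT13 PBS replicate 2 or 3 (limma adjusted p = 0.18 and 0.11) and without ZT13 LPS replicate 2, 3 or 4 (0.069, 0.08 and 0.081).

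Most called markers of neurons and of oligodendrocytes moved in the same direction as *Slc1a2* and *Glul* at ZT13, whereas most microglial and endothelial markers were called higher. Of 10 neuronal markers 7 were called lower and none higher, and their summed level was 6739 to 7014 CPM in PBS and 6000.5 to 6318 CPM in LPS mice. Of 8 oligodendrocyte markers 5 were called lower and 2 higher, with sums of 2981 to 3222 CPM and 2598 to 2783 CPM. At this time 19.2% of all tested genes were called higher and 9.4% lower. *Glul* is also expressed by oligodendrocytes. No neuronal or oligodendrocyte marker was at 0 in all mice, and the part of these cells in the falls was not tested.

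Other astrocyte genes for glutamate, glutamine and GABA were mostly lower at ZT13, where 6 of 11 fell and 1 rose. Of all tested genes 19.2% were called higher and 9.4% lower at this time. The genes that fell included *Grm3*, a metabotropic glutamate receptor (-0.39, limma adjusted p = 6.1e-04), *Slc6a11*, the GABA transporter GAT-3 (-0.30, 6.0e-05), and *Slc6a9*, a glycine transporter (-0.25, 0.0064). The gene that rose was *Slc38a5*, a glutamine transporter also found in endothelium (1.12, 4.6e-04). At ZT1, 1 of the 11 rose and 2 fell, among them *Slc6a11* (-0.19, 0.0078). The list's median log2 difference was -0.11 at ZT1 and -0.21 at ZT13.

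The connexins diverged as the transporters did. *Gjb6* (ENSMUSG00000040055, chromosome 14 of GRCm38 from 57123303 to 57133611, minus strand) encodes connexin 30. *Gjb6* was at 30.97, 31.8 and 33.6 CPM in the PBS mice at ZT1 and at 51.2, 59.6, 44.6, 50.2 and 42.9 CPM in the LPS mice. *Gjb6* was at 31.9, 44.7 and 40.2 CPM in the PBS mice at ZT13 and at 57.7, 51.7, 54.9, 48.4 and 49.1 CPM in the LPS mice. All LPS mice lay above all PBS mice of their time, and 2 of the 3 ZT13 PBS mice were higher than those of ZT1. The log2 difference was 0.61 (SE 0.092, limma adjusted p = 0.0011) at ZT1 and 0.43 (SE 0.091, limma adjusted p = 0.0025) at ZT13, each with an exact permutation p of 0.036.

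*Gja1* (ENSMUSG00000050953, chromosome 10 of GRCm38 from 56377330 to 56402513, plus strand) encodes connexin 43, the other main astrocyte connexin. *Gja1* was at 131, 129 and 132 CPM in the PBS mice at ZT1 and at 123, 99.1, 114, 138 and 123 CPM in the LPS mice. *Gja1* was at 128, 134 and 126 CPM in the PBS mice at ZT13 and at 122, 131, 98.3, 109 and 133 CPM in the LPS mice. At ZT1 LPS mice lay on both sides of the PBS mice, and at ZT13 they lay among or below them. The log2 difference was -0.14 (SE 0.083, limma adjusted p = 0.3) at ZT1 and -0.13 (SE 0.082, limma adjusted p = 0.27) at ZT13, with 95% CIs of -19.97% to 3.11% and -19.2% to 3.13%, so that a fall of several percent is not resolved from no change in 3 and 5 mice.

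The ratio of *Gja1* to *Gjb6* was 4.24, 4.05 and 3.93 in PBS and 2.40, 1.66, 2.55, 2.76 and 2.86 in LPS mice at ZT1. At ZT13 it was 4.03, 2.99 and 3.13 in PBS and 2.12, 2.53, 1.79, 2.25 and 2.71 in LPS mice. All LPS mice were below all PBS mice of their time. The log2 ratio differed by -0.75 at ZT1 and -0.57 at ZT13 (two-sided exact permutation p = 0.036 for each, and 0.036 after adjustment over the 4 ratio tests).

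**Figure D2:**
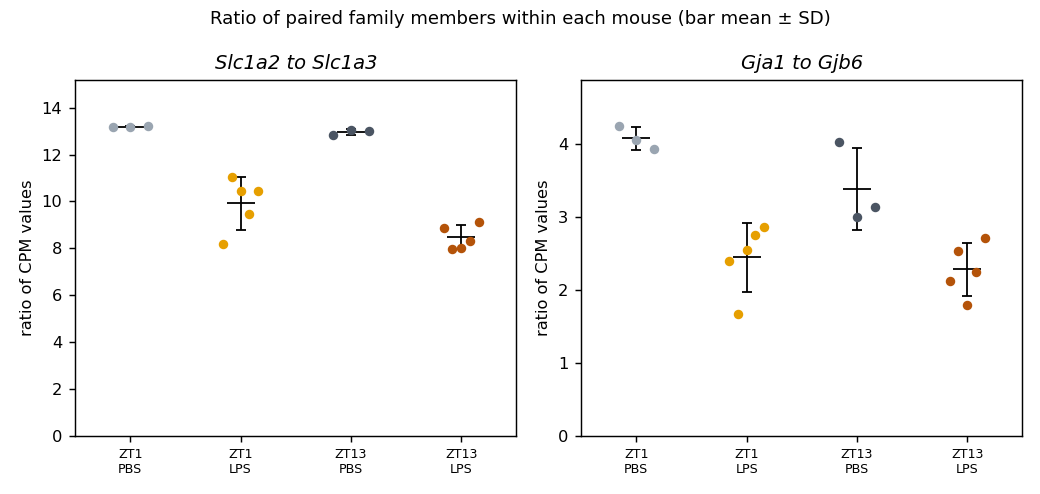
Ratio of CPM values within each mouse for *Slc1a2* to *Slc1a3* (left) and *Gja1* to *Gjb6* (right), 1 point per mouse, with the mean and SD of the 4 groups and axes from 0. LPS mice lie below all PBS mice of their time in both panels, at 7.99 to 11.1 on the left and 1.66 to 2.86 on the right.

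The matching windows of the connexin genes are chr10:56377050-56377299 on the plus strand for *Gja1* and chr14:57133612-57133861 on the minus strand for *Gjb6* (RefSeq, GRCm38.p6, 250 bases before the start site, 5′ to 3′ on the gene's strand), shown for the same reason as those of the transporters.
Gja1: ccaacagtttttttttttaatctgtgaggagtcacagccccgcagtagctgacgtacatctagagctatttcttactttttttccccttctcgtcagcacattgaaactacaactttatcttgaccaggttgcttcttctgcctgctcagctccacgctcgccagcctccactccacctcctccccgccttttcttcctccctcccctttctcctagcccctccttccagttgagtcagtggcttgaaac
Gjb6: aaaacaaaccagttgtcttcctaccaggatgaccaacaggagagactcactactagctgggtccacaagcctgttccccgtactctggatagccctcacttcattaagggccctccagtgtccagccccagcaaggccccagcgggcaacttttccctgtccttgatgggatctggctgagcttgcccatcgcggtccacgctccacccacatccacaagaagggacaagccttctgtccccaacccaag
Neither window matched any of the 4 motifs, so neither holds capitals.

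Of the 4 other gap junction and hemichannel genes 2 rose and 2 fell at ZT13, where 19.2% of all tested genes were called higher and 9.4% lower. *Gjb2*, connexin 26, rose by 1.14 (limma adjusted p = 1.2e-06) and *Tjp1*, the junction scaffold ZO-1 that endothelium also expresses, by 0.22 (6.6e-04). *Gjc3*, a connexin gene expressed mainly in oligodendrocytes, differed by -0.38 (1.9e-04) and *Panx1*, pannexin 1, by -0.23 (0.023). At ZT1 only *Gjb2* of these 4 was called, with a log2 difference of 0.64 (0.0083).

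*Aqp4* (ENSMUSG00000024411) encodes the water channel of astrocyte endfeet. *Aqp4* was at 65.6, 61.3 and 60.2 CPM in the PBS mice at ZT1 and at 109.8, 74.9, 78.5, 84.8 and 74.9 CPM in the LPS mice. *Aqp4* was at 67.5, 56.01 and 58.9 CPM in the PBS mice at ZT13 and at 108, 101, 98.7, 113 and 86.4 CPM in the LPS mice. At ZT1 one LPS mouse stood well above the other 4, and the lowest LPS mouse was still above every PBS mouse. At ZT13 the groups were farther apart. The log2 difference was 0.42 (SE 0.11, limma adjusted p = 0.022) at ZT1 and 0.73 (SE 0.079, limma adjusted p = 8.6e-06) at ZT13, the largest of the 10 members at that time, each with an exact permutation p of 0.036. The ZT1 call was lost without any 1 of the PBS mice, with limma adjusted p = 0.055, 0.079 and 0.094 without replicates 1, 2 and 3, and it held without ZT1 LPS replicate 1, the highest mouse, with a log2 difference of 0.32 (limma adjusted p = 0.0039).

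*Kcnj10* (ENSMUSG00000044708, chromosome 1 of GRCm38 from 172341210 to 172374085, plus strand) encodes Kir4.1, the inward rectifier that buffers potassium. It was at 128 to 134 CPM in PBS and 84.96 to 164 CPM in LPS mice at ZT1, and at 126 to 129.6 CPM and 121 to 169.9 CPM at ZT13. LPS mice lay on both sides of the PBS mice at each time. The log2 difference was -0.08 (SE 0.15, limma adjusted p = 0.78) at ZT1 and 0.11 (SE 0.081, limma adjusted p = 0.35) at ZT13, with 95% CIs of -24.98% to 19.6% and -4.34% to 21.9%.

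Of 9 tested endfoot and water genes 2 rose and 1 fell at ZT13, where 19.2% of all tested genes were called higher and 9.4% lower. In this list and the next, counts so small are not read as a response of the list. *Hepacam* (GlialCAM), a binding partner of *Mlc1*, was the most increased (0.31, limma adjusted p = 7.3e-05, and 0.36, 5.3e-04, at ZT1). *Agrn*, the basement membrane proteoglycan agrin, differed by 0.14 (0.013). *Dtna*, alpha-dystrobrevin of the endfoot dystrophin complex, differed by -0.27 (5.1e-05). Of 8 genes for potassium, sodium and bicarbonate 2 rose and 3 fell at ZT13. Those higher included the pump regulator *Fxyd1* (0.43, 0.0077). *Fxyd7*, of the same regulator family (-0.34, 0.0023), *Kcnj16*, which encodes the Kir5.1 partner of Kir4.1 (-0.29, 0.024), and the cotransporter *Slc12a2* (-0.23, 0.035) were lower. At ZT1 the pump subunit *Atp1b2* rose (0.21, 0.002) and *Fxyd7* fell (-0.28, 0.017). *Atp1b2* differed by a similar 0.20 at ZT13 but was not called (SE 0.16, limma adjusted p = 0.42), with LPS mice at 279 to 527 CPM.

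*Aldh1l1* (ENSMUSG00000030088, chromosome 6 of GRCm38 from 90486427 to 90600203, plus strand) encodes a folate enzyme that marks astrocytes broadly. *Aldh1l1* was at 45.7, 47.3 and 47.9 CPM in the PBS mice at ZT1 and at 74.2, 70.99, 68.3, 69.3 and 64.98 CPM in the LPS mice. *Aldh1l1* was at 50.8, 57.3 and 53.2 CPM in the PBS mice at ZT13 and at 76.3, 89.5, 85.7, 81.9 and 69.1 CPM in the LPS mice. LPS mice lay above PBS mice at both times with a clear gap. Its log2 difference was 0.56 (SE 0.050, limma adjusted p = 2.7e-05) at ZT1 and 0.57 (SE 0.073, limma adjusted p = 4.1e-05) at ZT13, each with an exact permutation p of 0.036. Both calls held in all 8 fits that left out 1 mouse, as did both calls of *Slc1a3* and of *Gjb6*.

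*Aldoc* (ENSMUSG00000017390, chromosome 11 of GRCm38 from 78322968 to 78327781, plus strand), the brain aldolase of glycolysis, was at 573 to 597 CPM in PBS and 584 to 670.2 CPM in LPS mice at ZT1, and at 536 to 624 CPM and 547 to 645 CPM at ZT13. The groups overlapped at both times. Its log2 difference was 0.09 (SE 0.051, limma adjusted p = 0.25) at ZT1 and 0.03 (SE 0.056, limma adjusted p = 0.76) at ZT13, with 95% CIs of -1.31% to 15.2% and -6.16% to 10.8%.

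*S100b* (ENSMUSG00000033208, chromosome 10 of GRCm38 from 76253853 to 76261159, plus strand), whose product binds calcium and is also made by some oligodendrocyte lineage cells, was at 41.9, 39.6 and 40.6 CPM in PBS and 38.7, 38.98, 38.4, 37.4 and 38.9 CPM in LPS mice at ZT13. These groups did not overlap, LPS mice being lower. The log2 difference was nonetheless small and not called, at -0.08 (SE 0.043, limma adjusted p = 0.2), with a 95% CI of -11.3% to 0.908% and an exact permutation p of 0.036. At ZT1 it was at 35.4 to 44.2 CPM in PBS and 33.02 to 39.8 CPM in LPS mice, which overlapped, with a log2 difference of -0.10 (SE 0.082, limma adjusted p = 0.44).

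**Figure D3:**
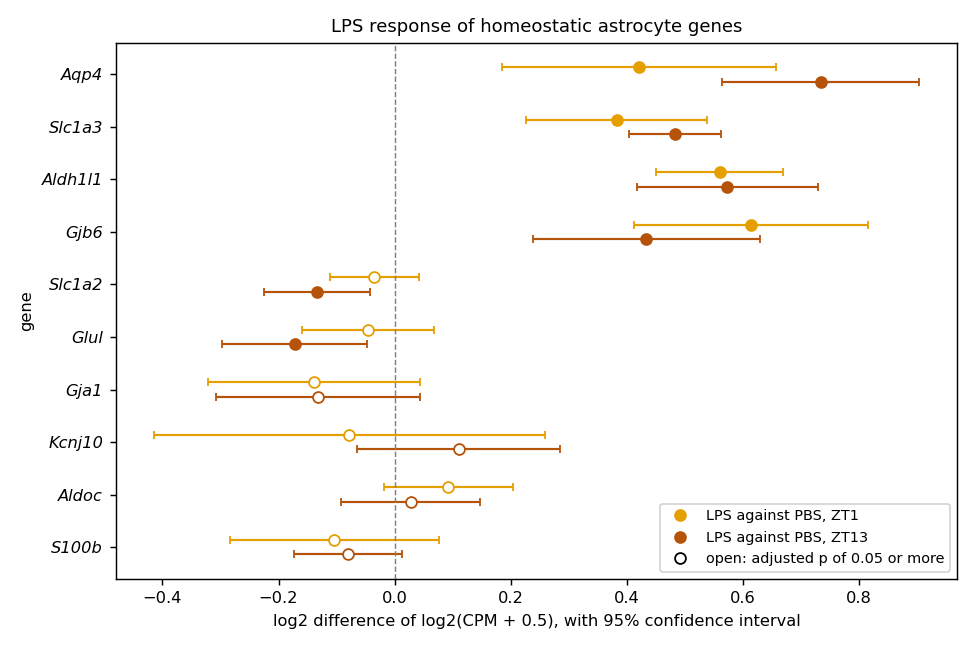
Difference between LPS and PBS mice on the log2(CPM + 0.5) scale for each gene at ZT1 (5 against 3 mice) and ZT13 (5 against 3 mice), with 95% confidence intervals from limma; filled points have an adjusted p under 0.05. *Aqp4*, *Slc1a3*, *Aldh1l1* and *Gjb6* are filled at both times and lie at 0.38 to 0.73, and *Slc1a2* and *Glul* are filled below 0 at ZT13 alone.

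The direction of the 4 increases was the same under each alternative scaling. Because the scaling of CPM to a fixed total sets the level of all genes, medians of all genes are given beside the falls. At ZT13, 3629 genes were called higher and 1772 lower with CPM as deposited, 2870 and 2759 with median-of-ratios factors, 2540 and 3106 after quantile normalization, and 2200 and 4962 after a trend on GC content and transcript length was removed in each library. The median of all genes was 0.05, -0.00098, -0.06 and -0.08 in these fits, in that order. At ZT1 the calls were 2089 higher and 972 lower as deposited, 1668 and 1417 with median-of-ratios factors, 1493 and 1426 after quantile normalization, and 1382 and 2218 after removal of the trend. *Slc1a2* and *Glul* differed at ZT13 by -0.19 and -0.23 with median-of-ratios factors (limma adjusted p = 0.0014 and 0.0055), and *Glul* by -0.12 after quantile normalization (0.055). Quantile normalization gives each gene the value of its rank, and *Slc1a2* ranked 6 or 7 in every library, so its level is fixed by that method and its value there is not given. With the GC and length trend removed, 9 of the 10 members were called at ZT13, 4 higher and 5 lower. That fit called 38% of all genes, 2200 higher and 4962 lower, with a median below 0, so the lower calls are not particular to the members.

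Time of day was also compared within each treatment. Between ZT13 and ZT1 PBS mice 0 of 10 members were called, where 0.52% of all genes were, and 3 had an unadjusted p under 0.05, where 13.5% of all genes had. These were *Aldh1l1* (0.19, limma adjusted p = 0.16), *Slc1a3* (0.08, 0.32) and *Gjb6* (0.26, 0.32), all higher at ZT13. The PBS groups did not overlap for 2 of the 10 members, *Aldh1l1* and *Slc1a3*, against 18.7% of all genes, and 3 mice against 3 cannot go below an exact permutation p of 0.1. For the other 7 members the log2 difference ranged from -0.04 for *Aqp4* to 0.09 for *Glul*.

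Among LPS mice 0 of 10 members were called between ZT13 and ZT1, where 0.0212% of all genes were, and 3 had an unadjusted p under 0.05, where 10.6% of all genes had. *Aqp4* differed by 0.27 (SE 0.099, limma adjusted p = 0.33), its levels being 102 ± 10.2 CPM (SD, n = 5) in ZT13 LPS and 84.6 ± 14.7 CPM (SD, n = 5) in ZT1 LPS mice. *Slc1a3* differed by 0.18 (SE 0.060, 0.27) and *Aldh1l1* by 0.20 (SE 0.063, 0.24). All 3 were higher at ZT13, and the groups overlapped. Without ZT1 LPS replicate 1, whose *Aqp4*, *Slc1a3* and *Gfap* levels were the highest of its group, 2 of the 10 members were called, where 1.83% of all genes were. They were *Aqp4* (0.37, limma adjusted p = 0.023) and *Slc1a3* (0.23, 0.034), each called in only 1 of the 10 fits that left out 1 LPS mouse. Leaving out the highest mouse of the lower group widens the difference, so these calls are no separate support for it. *Gfap* differed by 0.48 between the LPS groups with all mice (0.17) and by 0.58 without that mouse (0.022).

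The TOD × LPS interaction, the LPS response at ZT13 less that at ZT1 over all 16 mice, was called for 0 of 10 members, where 0.159% of all genes were called. Only *Aqp4* had an unadjusted p under 0.05, where 9.25% of all genes had, with an interaction of 0.31 (SE 0.15, limma adjusted p = 0.54). The others ranged from -0.18 for *Gjb6* to 0.19 for *Kcnj10*. The *Slc1a2* and *Glul* falls at ZT13 were thus not shown to differ from the values at ZT1, with interactions of -0.10 (SE 0.056, limma adjusted p = 0.64) and -0.13 (SE 0.085, limma adjusted p = 0.72). The comparisons between times share their mice with those between treatments.

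**Figure D4:**
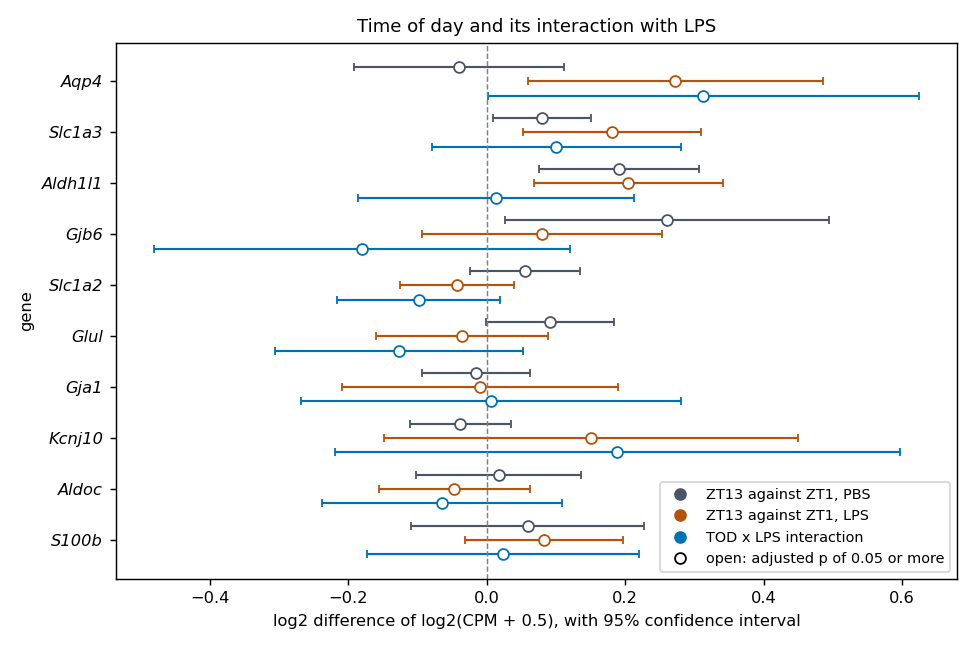
Log2 difference between ZT13 and ZT1 in PBS mice (3 against 3), in LPS mice (5 against 5), and the TOD × LPS interaction (16 mice), with 95% confidence intervals from limma; all points are open because none had an adjusted p under 0.05. The interaction of *Aqp4*, 0.31, lies farthest from 0.

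Levels can be compared between genes only per length. Per kilobase of exon sequence, *Glul* (353 ± 10.4 CPM per kb, SD, n = 3, in ZT1 PBS) and *Slc1a2* (302 ± 6.74) were highest, followed by *Aldoc* (179 ± 3.98) and *Slc1a3* (35.2 ± 0.739). *S100b* (26.4 ± 3.05) and *Kcnj10* (24.2 ± 0.521) came next and overlapped. *Gja1* (12.7 ± 0.156), *Gjb6* (12.01 ± 0.494), *Aldh1l1* (10.4 ± 0.255) and *Aqp4* (10.01 ± 0.457) were lowest, the last of them overlapping its neighbour. In ZT13 PBS mice the first 4 kept this order, and *Gjb6* (14.6 ± 2.43) was above *Gja1* (12.6 ± 0.400) by mean with overlapping ranges. In both LPS groups the first 4 kept this order by mean, although *Glul* and *Slc1a2* overlapped at ZT13. *Gja1* was last in both LPS groups, at 11.6 ± 1.40 and 11.6 ± 1.45 CPM per kb, below *Gjb6* at 18.6 ± 2.45 and 19.6 ± 1.48. This order depends on the gene model, since by the longest transcript *Gja1* ranked 5 in every group.

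The coefficient of variation was larger in LPS than in PBS mice for 9 of 10 members at ZT1 and for 7 at ZT13. For *Kcnj10* it was 2.15% in ZT1 PBS and 22.4% in ZT1 LPS mice, and 1.28% and 13.6% at ZT13. For *Gja1* it was 1.23% and 12.05% at ZT1, and 3.17% and 12.5% at ZT13. It was smaller in LPS mice for *S100b* at both times (11.5% in PBS and 7.86% in LPS at ZT1, 2.80% and 1.60% at ZT13), and at ZT13 for *Gjb6* (16.7% and 7.54%) and *Aldoc* (8.16% and 5.94%). Over all tested genes, the mean absolute deviation from the group mean on the log2 scale was 0.099 to 0.1575 in ZT1 LPS mice. It was 0.095 to 0.101 in ZT1 PBS mice, and 0.102 to 0.1285 in LPS and 0.099 to 0.101 in PBS mice at ZT13. At equal spread, deviations from the mean of 3 mice come out smaller than those from the mean of 5. No correction was made for this, so these deviations do not compare LPS with PBS mice. The share of all genes with a larger coefficient in LPS mice was not counted, so these counts are not read as a trait of the members. These spreads are descriptions over 3 and 5 mice.

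The members did not vary together as 1 unit. With group means removed, the residual log2 levels of 45 pairs over 16 mice had a median Pearson r of 0.15, and 28 pairs were positive. *Gja1* and *Kcnj10* were the most alike (r = 0.88), followed by *Glul* and *Aldoc* (0.73), *Slc1a2* and *Glul* (0.72) and *Aqp4* and *Slc1a3* (0.71). *Aqp4* and *Glul* were the most opposed (-0.65). Against *Gfap*, *Slc1a3* and *Aqp4* had r of 0.85 and 0.82, *Aldh1l1* 0.56, *Gjb6* -0.08, *Gja1* 0.09, *Slc1a2* -0.46 and *Glul* -0.71. Among genes outside the astrocyte lists, those most like the mean of the 10 members were *Rnase4* (r = 0.86), *Paqr8* (0.86), *Npl* (0.85), *Plcl1* (0.85) and *Abcb1a* (0.84). These are the highest values among all tested genes outside the lists. How high r would reach over 16 mice without any relation was not worked out. Values from 1 library share its composition and depth, and these correlations are descriptions.

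Astrocyte genes beyond the members were also divided. Of 82 tested genes in 7 further lists, 18 rose and 8 fell at ZT1 and 26 rose and 26 fell at ZT13, with median log2 differences of 0.0033 and -0.030. Of all tested genes 11.1% were called higher and 5.15% lower at ZT1, and 19.2% and 9.4% at ZT13. These shares also stand beside the counts of each list in the paragraphs below. None of the calls in the 7 lists changed direction under the 4 other scalings, but the split did. With median-of-ratios factors 17 higher and 15 lower were called at ZT1 and 22 higher and 31 lower at ZT13, and with the GC and length trend removed 13 higher and 24 lower and 16 higher and 40 lower.

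Of 18 metabolic genes 8 rose and 4 fell at ZT13. The metallothioneins *Mt1* (1.45, limma adjusted p = 6.3e-07) and *Mt2* (0.70, 0.03), *Cbs* of transsulfuration (0.77, 1.6e-04) and the lactate transporter *Slc16a1* (0.69, 4.0e-05) rose most. *Gldc* of glycine cleavage (-0.64, 5.3e-05), *Phgdh* of serine synthesis (-0.41, 5.1e-04), *Acsbg1*, an acyl-CoA synthetase (-0.30, 6.5e-04), and *Ppp1r3c*, a glycogen regulator (-0.25, 0.015), were lower. At ZT1, 5 of the 18 rose and 2 fell.

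Of 12 secreted and lipid carrier genes 5 rose and 4 fell at ZT13. Angiotensinogen *Agt* (1.22, limma adjusted p = 2.7e-05), *Sparc* (0.85, 5.7e-10), *Dbi* (0.72, 2.6e-06) and clusterin *Clu* (0.58, 5.4e-08) rose most. Thrombospondin *Thbs4* (-0.49, 0.038), *Sparcl1* (-0.23, 6.7e-04), *Apoe* (-0.22, 0.0039) and the glypican *Gpc5* (-0.20, 0.015) fell. At ZT1, 5 rose and 1 fell.

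Of 20 identity factors and receptors 6 rose and 6 fell at ZT13. The urea transporter *Slc14a1* (1.64, limma adjusted p = 2.2e-08), *Id3* (0.63, 1.1e-05), the transcription factor *Sox9* (0.51, 1.4e-05) and tissue factor *F3* (0.33, 0.019) rose. *Sox9* was lower in ZT13 than in ZT1 PBS mice (-0.27, limma adjusted p = 0.0496). It was called neither for LPS at ZT1 (0.10, 0.28) nor between the LPS groups (0.13, 0.44). The zinc transporter *Slc39a12* (-0.70, 3.4e-04), *Cldn10* (-0.44, 0.0051), the sphingosine phosphate receptor *S1pr1* (-0.39, 3.2e-04) and *Id4* (-0.28, 0.0024) fell. At ZT1, 4 rose and 2 fell.

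**Figure D5:**
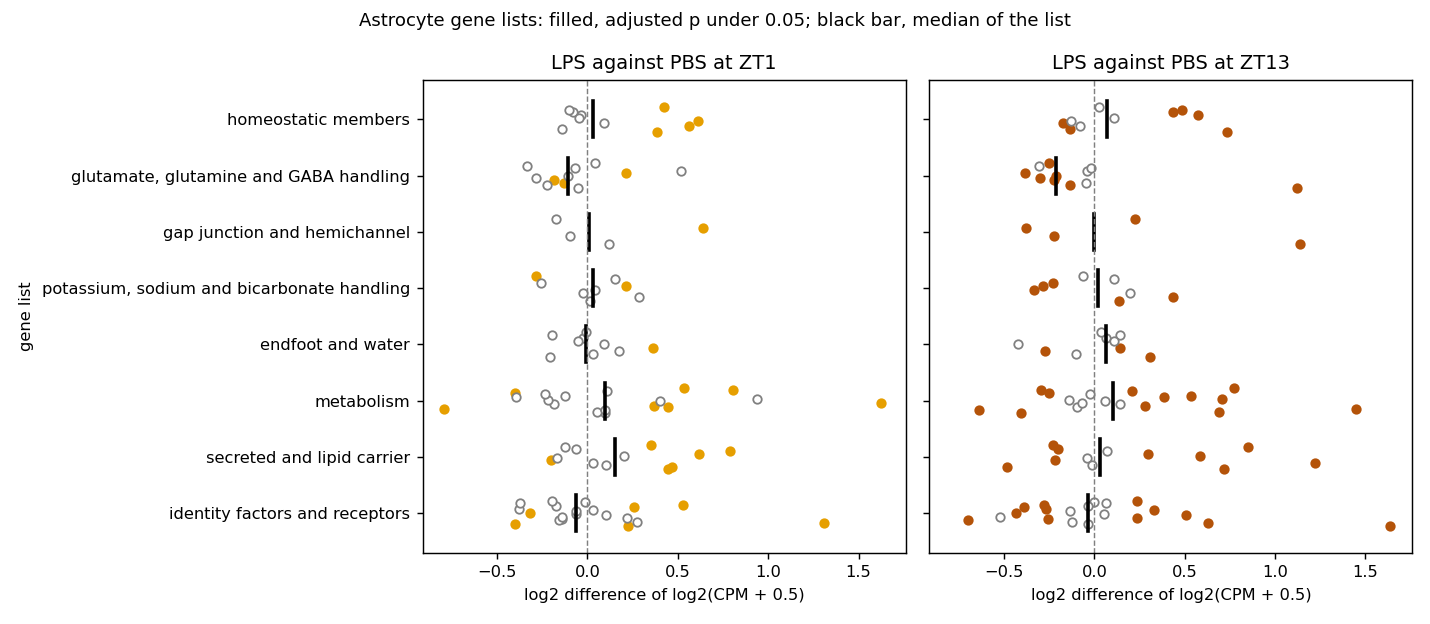
Log2 difference between LPS and PBS mice at ZT1 (left) and ZT13 (right) for the 10 members and 7 further astrocyte lists, 1 point per gene; filled points have a limma adjusted p under 0.05 and black bars are list medians. At ZT13 the glutamate, glutamine and GABA list has 6 filled points below 0 and 1 above, and the other lists, the 10 members included, also hold filled points on both sides.

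Of 26 tested reactive astrocyte genes 23 rose at ZT1 and 25 at ZT13 and none fell, with median log2 differences of 1.97 and 2.30. These genes were listed because they rise in reactive astrocytes, so their direction is not an independent result. In whole cortex the cells that expressed them were not resolved. Summed over the list, PBS mice held 234 to 245 CPM at ZT1 and 246 to 264 CPM at ZT13, and LPS mice 1337 to 2250.3 CPM and 1923 to 2645 CPM. Endothelial markers rose alongside the 4 increased members, with 4 of 7 called higher and 1 lower at ZT1 and 6 higher at ZT13. Their sums were 164 to 167 CPM in PBS and 178 to 255 CPM in LPS mice at ZT1, and 110.0 to 131 CPM and 245 to 268 CPM at ZT13. Of 9 microglial markers 8 were called higher and 1 lower at each time, with sums of 222 to 236 CPM in PBS and 478 to 516 CPM in LPS mice at ZT13. Of 3 tested neutrophil markers 2 were called higher at ZT1 and 3 at ZT13, and none of 5 ependymal and choroid plexus or 4 red cell markers was called at either time. The ependymal and choroid plexus sums varied widely between libraries of 1 group, at 15.7 to 902 CPM in PBS and 16.8 to 838 CPM in LPS mice at ZT1 and 16.7 to 947 CPM and 33.3 to 574 CPM at ZT13, and such spread leaves large differences unresolved. Of 4 oligodendrocyte precursor markers 1 was called higher at ZT1, and 1 higher and 1 lower at ZT13. At ZT1, 3 of 10 neuronal markers were called lower, and of 8 oligodendrocyte markers 2 were called lower and 1 higher. The part of these cells in the members' differences was not tested.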

How the data were processed

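The authors deposited CPM for each gene and mouse in 1 table, each sample summing to 1000000. The submitters' processing notes name bcl2fastq, DRAGEN 4.0.3-8 and GRCm38; the tool that counted reads and its annotation are not given in the sources used here. The table's 55774 lines hold 55487 identifiers, since 287 lines repeat others, and 55227 of these are in GENCODE M21, which gave coordinates and lengths. The lowest values step by what 1 read is worth, which gave 20251840 to 29112758 reads per library. Only 80.7% to 82.8% of values up to 20 reads were whole within 0.01 of a read, so counts were not recovered and no count test was run. CPM was compared on the log2 scale with a pseudocount of 0.5, for genes that reached a CPM of 1 in 3 or more of the 16 samples, using limma 3.58.1 (R 4.3.3, trended prior variance), each pair of groups alone and the interaction on all 16. Single genes and ratios were compared by two-sided exact permutation tests (scipy 1.17.1, Python 3.11.15), which cannot go below 0.036 for 3 against 5. Each sample is a separate mouse. The fits were tested on simulated data with known changes. The members and lists were chosen with earlier results of these data known. All members are named, and from the other astrocyte lists up to 4 called genes per direction with the largest difference at ZT13, of which 2 are not reported here. Same-numbered samples had residual correlations of -0.20 to 0.33, so numbers were not used as pairs. Alternatives were other pseudocounts (0.1 and 1), filters (all genes above 0, and CPM of at least 5), scalings (median-of-ratios factors, quantile normalization, protein-coding nuclear genes only, removal of a GC and length trend), sample quality weights, 1 model for all 16 samples, an untrended prior, a replicate block, grouping by the treatment field, and fits without each mouse in turn. Promoters came from RefSeq (GRCm38.p6) and matched 9 of the 10 members. Figures were drawn with matplotlib 3.10.9.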

Additional observations from a re-analysis of the deposited data

Results flagged for a closer look

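*Aqp4* in ZT1 LPS mice had 1 sample far from the others. Replicate 1 was at 109.8 CPM and the next highest at 84.8 CPM, a gap of 0.715 of the group's range. Of the 20 groups of 5 LPS mice examined (10 members at 2 times) this was the 1 so far apart, and chance sets aside about 1 in 20 groups.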

How the results depend on the processing

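For the members, at ZT1 the count called was 4 as reported, 2 when all genes with CPM above 0 were tested and 0 when treatment came from the treatment field. At ZT13 the members' count was 6, 3 with all genes and 0 with the treatment field. With all genes tested, 4.16% of them were called at ZT1 and 11.2% at ZT13, and with the treatment field 0% and 0%. Fits without 1 mouse gave 3 to 4 members at ZT1, 4 to 6 at ZT13, 0 to 2 between the LPS groups (2 without ZT1 LPS replicate 1), and 0 between the PBS groups and for the interaction, where the shares of all genes called were 9.37% to 19.9%, 23% to 29.4%, 0% to 1.83%, 0.0636% to 0.461% and 0.0371% to 0.551%, in that order. Testing all genes raised the number of tests, and there the calls lost were *Aqp4* and *Slc1a3* at ZT1 (limma adjusted p = 0.15 and 0.058) and *Slc1a2*, *Glul* and *Gjb6* at ZT13 (0.16, 0.22 and 0.057). With no intensity trend *Aqp4* at ZT1 (0.071) and *Slc1a2* and *Glul* at ZT13 (0.12 and 0.14) were lost. The cause was not tested.

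With the treatment field the log2 differences of *Aqp4*, *Slc1a3*, *Aldh1l1* and *Gjb6* reversed to -0.13, -0.21, -0.27 and -0.20 at ZT1 and -0.39, -0.25, -0.30 and -0.19 at ZT13, and *Slc1a2* and *Glul* to 0.11 and 0.16. All 6 samples that this field gives as PBS are titled LPS, and 6 of the 10 that it gives as LPS are titled PBS. With the GC and length trend removed, *Aldoc* at ZT13 became -0.16 (limma adjusted p = 0.037), where the median of all genes was -0.08, *Gja1* was called lower at ZT1 and ZT13 (0.044 and 0.037), and *S100b* lower at ZT13 (2.9e-04). *S100b* was also called at ZT13 with median-of-ratios factors and quantile normalization (0.03 and 0.038), and *Aldoc* at ZT1 with quantile normalization (0.048).

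With the replicate block, 5 members were called at ZT1, *Gja1* being added (limma adjusted p = 0.047), 4 at ZT13, without *Slc1a2* and *Glul* (0.16 and 0.058), and 0 in the other comparisons. Of all genes this fit called 14% at ZT1 and 24.8% at ZT13. The numbers give no shared animal or batch. Of 590 log2 differences of single members under alternatives that kept all mice and the titles, 570 kept their side of the threshold without a called value changing sign, and 10 of these, not called in either fit, changed sign. Most of the 590 were not called as reported, so this count says little about the calls themselves. A call was lost in 12, and *Slc1a2* and *Glul* at ZT13 were each called in 8 of 12 alternatives. Without 1 mouse the ratio tests cannot go below 0.057 or 0.095, and both ratios stayed lower in LPS. With 3 and 5 mice, differences of a few percent are not resolved, and intervals cover spread between mice only.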
